A study of Mus musculus with 66 samples.

Results

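The genes described here are 10 components, targets and antagonists of Nodal and BMP signalling in mouse embryonic stem cells: Nodal, Lefty1, Lefty2, Tdgf1, Eomes, Bmp4, Id1, Id2, Id3 and Smad7. They were taken by symbol from 55487 gene identifiers in 7 RNA sequencing libraries, and all 10 were found and were among the 15421 genes with enough counts to be tested. The libraries come from the E14 line. GDel1 (2 libraries) and GDel2 (2 libraries) share 1 genotype label, a deletion of a G4 at Praf2, G4 being short for G-quadruplex, a structure that guanine-rich nucleic acid can fold into. The remaining 3 libraries are wildtype. All cells were untreated and grew with 15% fetal bovine serum, LIF, 3 µM of a GSK inhibitor and 1 µM of a MEK1/2 inhibitor, so every group shares these agents. Nothing in the labels tells if the deletions are different clones or the replicates different cultures, so p-values measure only the spread between these libraries. Of the 66 samples in the series, the remaining 59 are not analysed here.

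Nodal and BMPs are secreted ligands of the TGF-beta superfamily that bind serine/threonine kinase receptors at the cell surface. Nodal and activin signal through SMAD2 and SMAD3, and Nodal needs a co-receptor such as TDGF1 (Cripto); BMPs signal through SMAD1, SMAD5 and SMAD9 and switch on the Id genes. In mouse embryonic stem cells LIF and BMP together can hold cells undifferentiated, with Id proteins among the BMP targets that act there, while Nodal signalling is active in these cells and drives the expression of its own antagonists, the Lefty genes.

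Ribosomal RNA was removed from total RNA before directional libraries were made, and these held 12316853 to 18762704 expected counts each. Mitochondrial transcripts took 9.91% and 4.83% of counts in GDel1, 6.19% and 9.60% in GDel2, and 6.30% to 6.89% in wildtype, and the replicates of GDel1 stood further apart than those of the other groups. The targeted gene, Praf2 on chromosome X, had 10.1 and 9.26 CPM in GDel1, 13.1 and 14.1 CPM in GDel2, and 27.5, 28.8 and 30.6 CPM in wildtype. It was lower in all 4 deletion libraries, by 1.59 ± 0.11 (SE) on the log2 scale in GDel1 and by 1.09 ± 0.11 in GDel2. CPM are counts scaled to a fixed total after TMM scaling, which corrects library sizes for their composition. Log2 fold changes and adjusted p-values come from edgeR's quasi-likelihood test with Benjamini-Hochberg adjustment over all genes tested unless another tool is named, with 0.05 as the threshold. Naive pluripotency markers (12 genes, among them Pou5f1, Sox2 and Nanog) summed to 4406 to 4871 CPM in GDel1, 4354 to 4718 CPM in GDel2 and 5054 to 5144 CPM in wildtype, and none of them was at 0 in any library. In bulk RNA, fewer cells of a type and less RNA per cell cannot be told apart.

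In GDel2, 6 of the 10 genes differed from wildtype. Eomes, Bmp4, Id1 and Id3 rose and Lefty1 and Smad7 fell, with folds between 1.30 and 3.84. In GDel1 none of the 10 passed the test. Id1, Id3 and Smad7 had log2 fold changes of 1.33, 0.84 and -0.40 in GDel1 and of 1.31, 0.88 and -0.38 in GDel2. Between the 2 deletions, Eomes and Bmp4 were higher and Lefty1 and Nodal lower in GDel2. The genes thus fall into sets. Eomes, Bmp4 and Lefty1 had a GDel2 value apart from both other groups. Id1, Id3 and Smad7 had both deletions on 1 side of wildtype in CPM. Nodal, Lefty2, Tdgf1 and Id2 were past the threshold against wildtype in neither deletion. Of this last set, Tdgf1 had both GDel2 libraries above all others without passing.

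These counts have to be read against the whole transcriptome. In GDel2 against wildtype 33.1% of all genes tested passed the threshold, 17.4% higher and 15.6% lower, and 6 of the 10 genes did. In GDel1 against wildtype 0.376% of all genes passed and 0 of the 10 did. At an unadjusted p under 0.05 edgeR had 3776 of the 15421 genes tested, 3 of them among the 10 (Id1, Id3 and Smad7). DESeq2 called 993 genes, 1 of them among the 10 (Smad7, adjusted p = 0.0141). It gave no adjusted p for Id1, Id2 and Id3. In GDel2 against GDel1 27.7% of all genes passed, 14.8% higher and 12.8% lower, and 4 of the 10 did, 2 in each direction. The median log2 fold change over the 10 genes was 0.06 in GDel1 (all genes 0.00), 0.21 in GDel2 (all genes 0.01) and 0.04 between GDel2 and GDel1 (all genes -0.01). In CPM, libraries did not overlap between the groups for 4 of the 10 in GDel1 against wildtype (43.5% of all genes). Of these 3 were higher and 1 lower, against 20.9% and 22.6% of all genes. In GDel2 against wildtype they did not overlap for 7 of the 10 (63.2% of all genes), 5 higher and 2 lower, against 32.2% and 31.0%. In GDel2 against GDel1 they did not overlap for 6 of the 10 (59.1% of all genes), 4 higher and 2 lower, against 29.9% and 29.1%. The 2 comparisons with wildtype use the same 3 wildtype libraries. Without the libraries of highest mitochondrial share, GDel1 replicate 1 and GDel2 replicate 2, 3 of the 10 passed in GDel1 against wildtype (26.3% of all genes in that fit), 6 in GDel2 against wildtype (36.5%) and 5 in GDel2 against GDel1 (36.5%). That fit has 1 library for each deletion, assumed to vary as the wildtype libraries do.

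**Figure D1:**
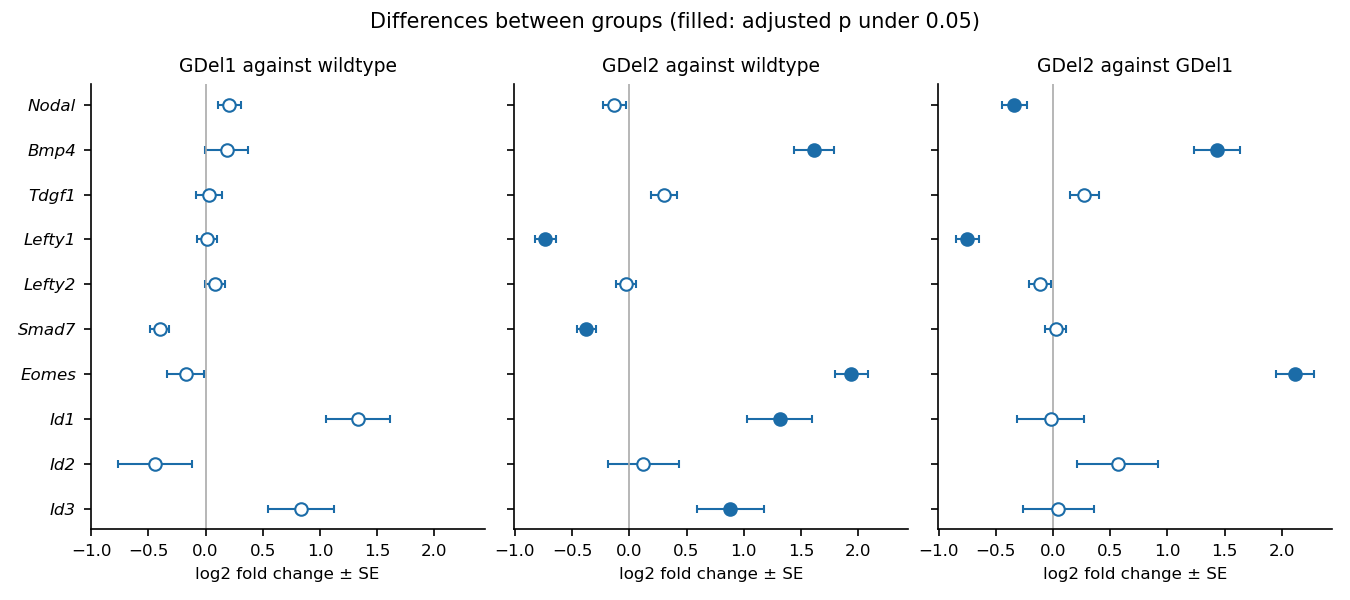
Log2 fold change ± SE (horizontal axis) of each of the 10 genes for both deletions against wildtype (GDel1 left, GDel2 middle) and for GDel2 against GDel1 (right), filled where the adjusted p was under 0.05. Eomes (1.94) and Bmp4 (1.61) lie furthest to the right in GDel2 against wildtype, while Id1 lies at 1.33 in GDel1 and 1.31 in GDel2.

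With the genotype label taken as 1 group, the 4 deletion libraries against the 3 wildtype libraries gave 0 of the 10 genes and 0.0% of all genes past the threshold (0 of 15421, lowest adjusted p 0.144). At an unadjusted p under 0.05 edgeR had 2930 genes, 4 of them among the 10 (Bmp4, Id1, Id3 and Smad7), and DESeq2 called 970 genes, among them Id1 and Smad7. In CPM, libraries did not overlap for Id1, Id3 and Smad7, 3 of the 10 genes, against 21.7% of all genes, 9.73% higher and 12.0% lower. Id1 was higher in all 4 deletion libraries by 1.32 ± 0.26 on the log2 scale, Id3 by 0.85 ± 0.27, and Smad7 was lower by 0.39 ± 0.08. Differences between the deletions add to the error here, and for Eomes (1.24 ± 0.58) and Bmp4 (1.07 ± 0.43) the deletion libraries overlapped wildtype. Taking the mean of the GDel1 and GDel2 effects from the fit with 3 groups instead put 6 of the 10 genes and 3149 of all genes past the threshold.

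RefSeq promoters on the GRCm38.p6 build were matched for 6 of the 10 genes, Nodal, Tdgf1, Eomes, Bmp4, Id2 and Id3. No entry was matched for Lefty1, Lefty2, Id1 and Smad7. The 250 bases before the start are shown for Bmp4 and Eomes, which rose together in GDel2, for Id3, which rose in GDel2, and for Nodal, the ligand of its branch. Capitals mark the SMAD box, GTCT, the short DNA word that SMAD proteins bind, or AGAC where it lies on the other strand.
Bmp4 (chr14:46390670-46390919, minus strand): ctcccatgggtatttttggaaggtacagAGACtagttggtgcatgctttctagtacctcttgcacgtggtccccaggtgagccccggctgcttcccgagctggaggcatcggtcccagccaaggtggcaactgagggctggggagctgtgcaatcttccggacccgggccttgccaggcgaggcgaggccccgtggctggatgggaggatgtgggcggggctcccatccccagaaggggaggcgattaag
Eomes (chr9:118477939-118478188, plus strand): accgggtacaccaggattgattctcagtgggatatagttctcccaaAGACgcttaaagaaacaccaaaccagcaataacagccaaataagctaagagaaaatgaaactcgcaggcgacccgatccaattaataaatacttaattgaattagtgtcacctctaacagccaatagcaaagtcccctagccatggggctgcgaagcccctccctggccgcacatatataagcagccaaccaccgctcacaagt
Id3 (chr4:136143572-136143821, plus strand): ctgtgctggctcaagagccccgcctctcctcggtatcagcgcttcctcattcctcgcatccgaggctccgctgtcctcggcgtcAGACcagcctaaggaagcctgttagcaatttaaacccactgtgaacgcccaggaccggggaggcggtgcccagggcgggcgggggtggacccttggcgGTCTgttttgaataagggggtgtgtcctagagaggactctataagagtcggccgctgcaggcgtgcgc
Nodal (chr10:61417722-61417971, plus strand): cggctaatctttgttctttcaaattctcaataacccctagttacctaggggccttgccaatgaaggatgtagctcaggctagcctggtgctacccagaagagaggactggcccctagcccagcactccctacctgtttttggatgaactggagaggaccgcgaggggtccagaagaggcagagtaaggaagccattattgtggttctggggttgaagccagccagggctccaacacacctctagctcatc
The Bmp4 promoter holds 1 box, at position -222 from the start, and the Eomes promoter holds 1, at -204. The Id3 promoter holds 2 boxes, at -166 and -68, and the Nodal stretch holds 0. Of the promoters not printed, Tdgf1 has 3 boxes and Id2 has 1. The word is common: the median over 32851 promoters was 2 boxes on either strand, and 82.9% held at least 1. Among the 6 promoters only Id2 held the GC-rich element GGCGCC (9.59% of all promoters, a palindrome and so the same on both strands). None held the FOXH1 core AATNCACA (3.18% of all promoters) or the canonical G-quadruplex motif (16.7%) on either strand. None held the exact TATA box word TATAAA on the sense strand (7.59%), and other forms of that box were not searched. No search word contains another, and a match is a description of the letters only.

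Levels can be compared between genes in TPM, which the authors scaled by transcript length. In wildtype the order of the mean TPM was Tdgf1 (371 ± 20.5, SD, n = 3), Lefty2 (56.1 ± 6.31), Smad7 (24.7 ± 2.68), Lefty1 (16.9 ± 1.62), Nodal (13.6 ± 1.84), Bmp4 (5.50 ± 2.65), Id3 (1.50 ± 0.44), Id1 (1.46 ± 0.18), Id2 (1.33 ± 0.17) and Eomes (0.87 ± 0.02). The wildtype libraries of Lefty1 (15.2 to 18.4 TPM) and Nodal (11.7 to 15.4 TPM) overlap, and so do those of Id3 (1.18 to 2.00 TPM), Id1 (1.26 to 1.59 TPM) and Id2 (1.18 to 1.51 TPM), but Lefty1 lay above Nodal within each of the 3 libraries, while no pair of the Id genes kept 1 order in all 3. Eomes lay lowest in GDel1, at 0.59 and 0.53 TPM, but in GDel2, at 3.53 and 2.75 TPM, it lay above Id2 (1.54 and 1.35 TPM). The co-receptor and Lefty2 of the Nodal branch were the most abundant of the 10 transcripts, and the Id genes and Eomes the least abundant in wildtype.

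**Figure D2:**
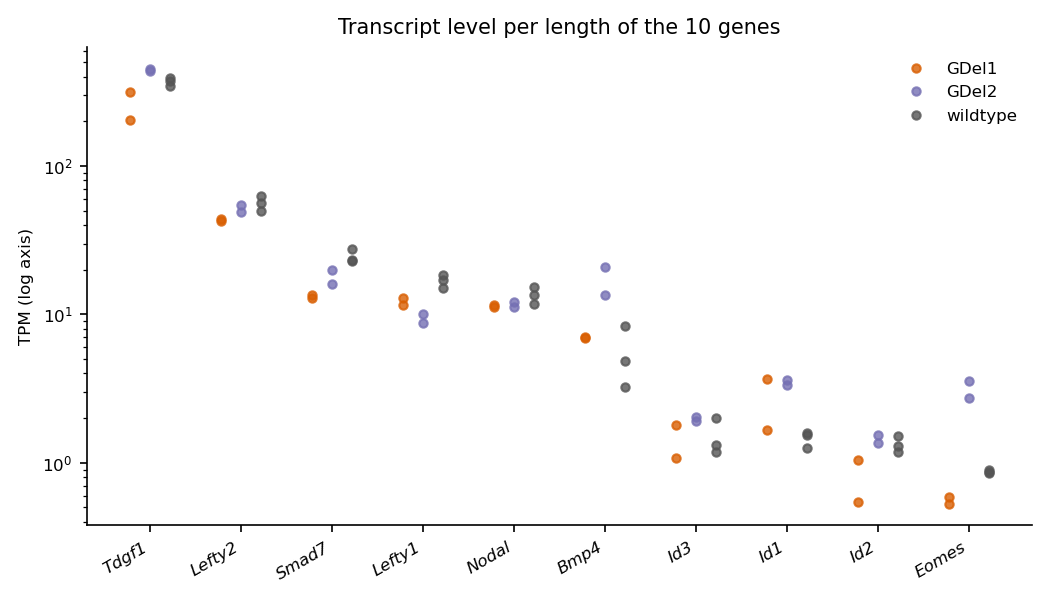
TPM of each library (log axis) for the 10 genes in order of their wildtype mean, with GDel1, GDel2 and wildtype from left to right within a gene. Tdgf1 lies highest (349 to 390 TPM in wildtype), and in Eomes and Bmp4 both GDel2 libraries lie above all others.

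The TPM scale differs from CPM in 2 ways that touch these genes. The median gene was at -0.30 on the log2 scale in GDel1 and at -0.05 in GDel2 against wildtype when TPM (with 1 added) replaced TMM-scaled counts. With 0.1 added it was at -0.44 and -0.07, so the shift depends on the value added. It can also be larger for a single gene: in GDel1 Lefty2 went from 0.08 to -0.36 with 1 added. A TPM difference in GDel1 therefore cannot be read without such a shift. The effective length that the deposited tables give for Bmp4 also varied between libraries, with 330 and 447 bases in GDel1, 562 and 559 bases in GDel2, and 439, 863 and 707 bases in wildtype. The wildtype TPM of Bmp4 accordingly spread over 8.41, 3.22 and 4.86, while its wildtype CPM lay at 5.08, 4.58 and 5.57. Differences are given in CPM from here on.

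**Figure D3:**
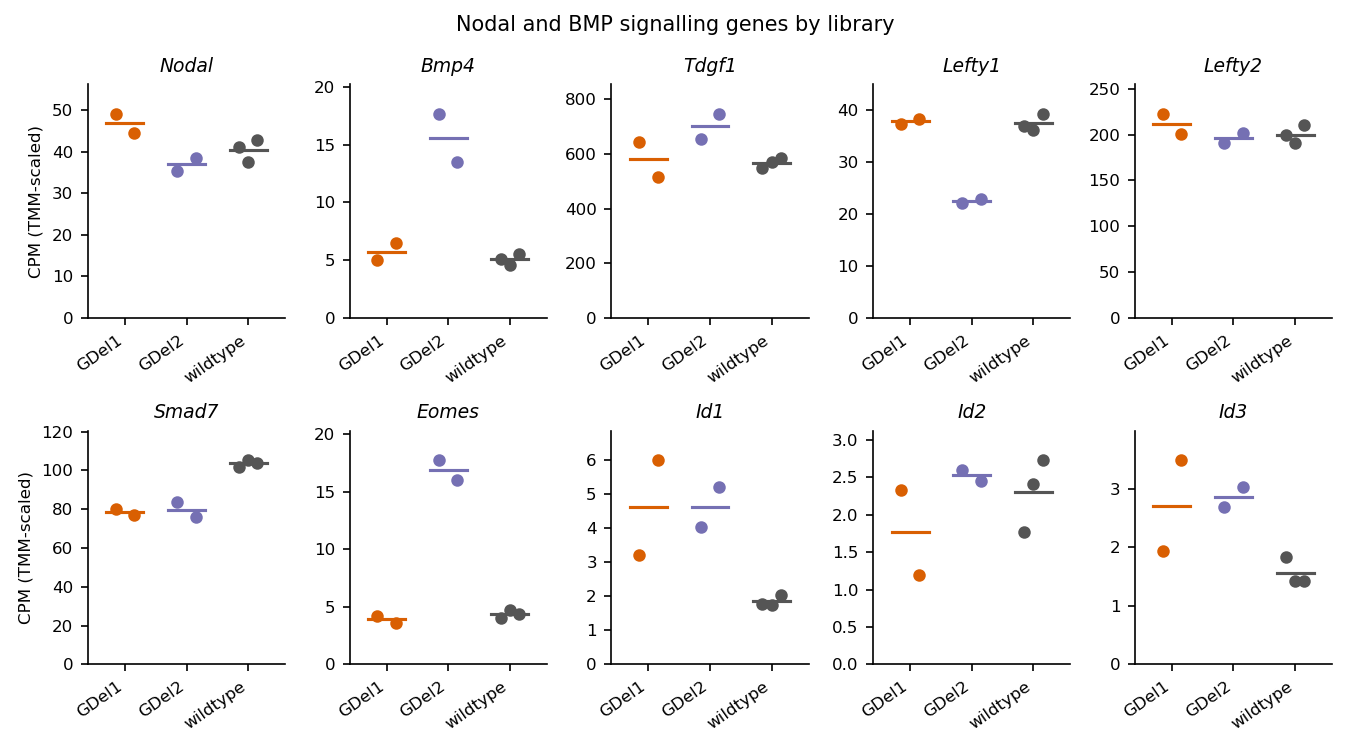
CPM of every library (points) and the group mean (bars) for each of the 10 genes, with GDel1, GDel2 and wildtype from left to right and each vertical axis starting at 0. In the panels of Eomes, Bmp4 and Lefty1 the GDel2 points stand apart from both other groups, and in those of Id1 and Smad7 both deletions lie on the same side of wildtype.

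Of the ligands, Bmp4 changed in GDel2 and Nodal did not differ from wildtype beyond the threshold in either deletion. Bmp4 (chr14:46383525-46390669, GRCm38.p6) encodes a BMP ligand. It had 4.99 and 6.45 CPM in GDel1, 17.7 and 13.5 CPM in GDel2, and 5.08, 4.58 and 5.57 CPM in wildtype. Both GDel2 libraries lay above all other libraries, and GDel1 overlapped wildtype. Behind these values stood 62 to 124 expected counts in GDel1, 187 to 224 in GDel2 and 69 to 106 in wildtype. Bmp4 rose in GDel2 by 1.61 ± 0.18 on the log2 scale, 3.06-fold (adjusted p = 0.000297), and was higher in GDel2 than in GDel1 by 1.43 ± 0.20 (adjusted p = 0.00126). In GDel1 the difference from wildtype was 0.18 ± 0.19 (adjusted p = 0.590).

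Nodal (chr10:61417972-61425338, GRCm38.p6) had 49.1 and 44.5 CPM in GDel1, 35.4 and 38.5 CPM in GDel2, and 41.1, 37.6 and 42.7 CPM in wildtype. GDel1 lay just above wildtype and GDel2 overlapped it. The differences from wildtype were 0.21 ± 0.10 on the log2 scale in GDel1 (adjusted p = 0.237) and -0.13 ± 0.10 in GDel2 (adjusted p = 0.361). Nodal was lower in GDel2 than in GDel1 by 0.34 ± 0.11 (adjusted p = 0.0497), at the edge of the threshold. That call was lost with DESeq2 (adjusted p = 0.111) and without any library other than GDel1 replicate 2: the adjusted p was 0.101 without GDel1 replicate 1, 0.164 and 0.0855 without GDel2 replicates 1 and 2, and 0.0924, 0.0788 and 0.0821 without wildtype replicates 1, 2 and 3. On the TPM scale the difference was 0.02.

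Tdgf1 (chr9:110939608-110946158, GRCm38.p6), the membrane-anchored Nodal co-receptor, was the most abundant of the 10 transcripts. It had 645 and 516 CPM in GDel1, 656 and 747 CPM in GDel2, and 547, 572 and 584 CPM in wildtype. Both GDel2 libraries lay above all GDel1 and wildtype libraries, and the GDel1 libraries lay on either side of wildtype. The difference from wildtype was 0.31 ± 0.11 on the log2 scale in GDel2 (adjusted p = 0.0699) and 0.03 ± 0.11 in GDel1 (adjusted p = 0.896). The GDel2 value passed the threshold without GDel1 replicate 1 and without GDel1 replicate 2. These libraries are not in the contrast but enter the fit through the shared spread, the filter, the scaling and the adjustment. Over the fits that left out 1 library, the log2 fold change in GDel2 was 0.21 to 0.39. Without GDel1 replicate 1 the difference between GDel2 and GDel1 was 0.44, with 1 GDel1 library left. With all libraries it was 0.27 ± 0.13 (adjusted p = 0.141). The counts of Tdgf1, like those of Lefty1 and Lefty2, were not whole numbers in 7 of 7 libraries, as happens where the authors' tool divides reads between similar genes, so their levels are uncertain by that share. The other 7 genes had whole counts.

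Of the antagonists, Lefty1 and Smad7 fell in GDel2 and Lefty2 did not differ. Lefty1 (chr1:180935022-180938401) and Lefty2 (chr1:180893108-180899107, both GRCm38.p6) are neighbours, and their secreted products block Nodal signalling. Lefty1 had 37.4 and 38.4 CPM in GDel1, 22.3 and 22.8 CPM in GDel2, and 37.0, 36.2 and 39.4 CPM in wildtype. Both GDel2 libraries lay below all others, and GDel1 lay within the wildtype range. Lefty1 fell in GDel2 by 0.74 ± 0.09 on the log2 scale (adjusted p = 0.000554) and was lower in GDel2 than in GDel1 by 0.75 ± 0.10 (adjusted p = 0.000979). The difference between GDel2 and GDel1 was smaller on the TPM scale with 1 added, where it did not pass limma's test (-0.36, adjusted p = 0.166).

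Lefty2 had 223 and 201 CPM in GDel1, 190 and 201 CPM in GDel2, and 199, 190 and 210 CPM in wildtype, so all 3 groups overlapped. Its log2 fold change was 0.08 ± 0.09 in GDel1 (adjusted p = 0.604) and -0.03 ± 0.09 in GDel2 (adjusted p = 0.829). Within a library the count ratio of the neighbours does not depend on scaling. Lefty1 had 0.168 and 0.191 counts per count of Lefty2 in GDel1, 0.117 and 0.114 in GDel2, and 0.186, 0.190 and 0.187 in wildtype. The GDel2 ratios lay below all others.

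**Figure D4:**
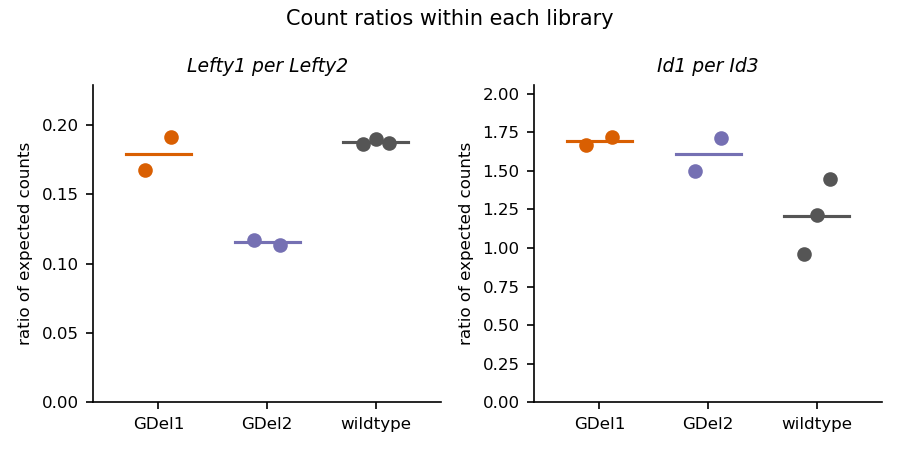
Ratio of expected counts within each library (points) and the group mean (bars) for Lefty1 per Lefty2 (left) and Id1 per Id3 (right), with GDel1, GDel2 and wildtype from left to right and axes starting at 0. Lefty1 per Lefty2 was 0.117 and 0.114 in GDel2, below the other 5 libraries, and Id1 per Id3 was above wildtype in both deletions.

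Smad7, on chromosome 18, encodes an inhibitory SMAD that blocks TGF-beta, activin and BMP receptors and is itself switched on by these pathways. It had 79.9 and 77.1 CPM in GDel1, 83.5 and 76.2 CPM in GDel2, and 102, 105 and 104 CPM in wildtype. All 4 deletion libraries lay below all 3 wildtype libraries, and the 2 deletions overlapped each other. Smad7 fell in GDel2 by 0.38 ± 0.08 on the log2 scale (adjusted p = 0.00859). In GDel1 the log2 fold change was -0.40 ± 0.08 (adjusted p = 0.0550), and between GDel2 and GDel1 it was 0.02 ± 0.09 (adjusted p = 0.871). The GDel2 call was lost without GDel2 replicate 2 and with the replicate number as a block. It was also lost by limma on the TPM scale with 1 added (-0.43, adjusted p = 0.101) and with 0.1 added. Over the fits that left out 1 library, the log2 fold change of Smad7 in GDel1 was -0.43 to -0.38. It passed the threshold without GDel1 replicate 1 and without GDel1 replicate 2, but those fits hold 1 GDel1 library and no spread within GDel1.

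Of the targets, Eomes rose the most. Eomes (chr9:118478186-118486132, GRCm38.p6) encodes a T-box transcription factor that Nodal signalling switches on in the early embryo and that acts in mesendoderm and trophoblast. It had 4.19 and 3.64 CPM in GDel1, 17.7 and 16.1 CPM in GDel2, and 4.05, 4.76 and 4.36 CPM in wildtype. Both GDel2 libraries lay far above all others, and GDel1 overlapped wildtype. The expected counts behind them were 52 and 70 in GDel1, 225 and 222 in GDel2, and 55, 77 and 83 in wildtype. Eomes rose in GDel2 by 1.94 ± 0.14 on the log2 scale, 3.84-fold (adjusted p = 4.81e-05), and by 2.12 ± 0.17 over GDel1 (adjusted p = 7.78e-05). In GDel1 the log2 fold change was -0.18 ± 0.16 (adjusted p = 0.535).

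Markers of other cell types were set beside the Eomes and Bmp4 values, and their part in the result was not tested. Calls among them are to be read against all genes tested, of which 17.4% were higher and 15.6% lower in GDel2 than in wildtype. Of 8 mesendoderm markers, Cer1 and Mesp1 were at 0 in all libraries and 1 (Mixl1) had enough counts to be tested. The sum over the 8 was 1.51 to 2.58 CPM in GDel1, 2.68 to 3.61 CPM in GDel2 and 1.25 to 1.84 CPM in wildtype. Most of the GDel2 sum was Mixl1, so it is no measure of the list as a whole. Mixl1 had 1.45 and 0.729 CPM in GDel1, 1.66 and 2.60 CPM in GDel2, and 0.736, 0.804 and 0.840 CPM in wildtype, and rose in GDel2 (log2 fold change 1.42, adjusted p = 0.0166). Of 8 trophoblast markers 6 were tested, and 2 were higher and 4 lower in GDel2. The trophoblast sum was 26.5 to 36.2 CPM in GDel1, 19.1 to 23.4 CPM in GDel2 and 26.6 to 27.9 CPM in wildtype. Primitive endoderm markers summed to 72.8 to 99.2 CPM in GDel1, 78.9 to 106 CPM in GDel2 and 113 to 119 CPM in wildtype, most of it Lama1 (65.4 to 113 CPM over the 7 libraries). Of the 4 primitive endoderm markers of 8 that were tested, Gata4 (log2 fold change 1.40, adjusted p = 0.0201) and Col4a1 (1.39, adjusted p = 0.000546) rose and Lama1 fell (-0.50, adjusted p = 0.0475) in GDel2. Neuroectoderm markers, of which 2 of 6 were tested and both rose in GDel2 (Sox1 and Nes), summed to 14.9 to 17.5 CPM in GDel1, 30.4 to 31.5 CPM in GDel2 and 17.1 to 20.6 CPM in wildtype.

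The Id genes encode helix-loop-helix proteins without a DNA-binding region that hold back differentiation factors, and they are direct BMP targets. Id1 (chr2:152736251-152737410, GRCm38.p6) had 3.22 and 5.98 CPM in GDel1, 4.02 and 5.20 CPM in GDel2, and 1.77, 1.73 and 2.05 CPM in wildtype. All 4 deletion libraries lay above all 3 wildtype libraries, and the 2 deletions overlapped each other. Id1 rose in GDel2 by 1.31 ± 0.29 on the log2 scale, 2.48-fold (adjusted p = 0.00841). In GDel1 the log2 fold change was 1.33 ± 0.28 (adjusted p = 0.0562), and between GDel2 and GDel1 it was -0.02 ± 0.29 (adjusted p = 0.969). The counts are low, 40 and 115 in GDel1, 51 and 72 in GDel2, and 24, 28 and 39 in wildtype. The GDel2 call was lost without GDel2 replicate 2. Over the fits that left out 1 library, the log2 fold change of Id1 in GDel1 was 0.79 to 1.68. It passed without GDel1 replicate 1, a fit with 1 GDel1 library left and no spread within GDel1.

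Id3 (chr4:136143822-136145392, GRCm38.p6) had 1.93 and 3.49 CPM in GDel1, 2.68 and 3.04 CPM in GDel2, and 1.84, 1.42 and 1.42 CPM in wildtype. In CPM all 4 deletion libraries again lay above wildtype, GDel1 replicate 1 by the smallest margin. In TPM both GDel1 (1.07 and 1.80) and GDel2 (2.04 and 1.92) overlapped wildtype (2.00, 1.31 and 1.18). The effective length of Id3 was 825 and 950 bases in GDel1, 867 and 891 bases in GDel2, and 670, 662 and 742 bases in wildtype. Id3 rose in GDel2 by 0.88 ± 0.29 on the log2 scale (adjusted p = 0.0474), on 34 and 42 counts in GDel2 against 25, 23 and 27 in wildtype. In GDel1 the log2 fold change was 0.84 ± 0.29 (adjusted p = 0.125), and it was -0.04 on the TPM scale with 1 added. Over the fits that left out 1 library it was 0.32 to 1.17. It passed without GDel1 replicate 1, a fit with 1 GDel1 library left and no spread within GDel1. The GDel2 call for Id3 rests on every GDel2 and wildtype library: the adjusted p was 0.111 and 0.216 without GDel2 replicates 1 and 2, and 0.0660, 0.129 and 0.134 without wildtype replicates 1, 2 and 3. It was also lost with DESeq2 (adjusted p = 0.143) and on the TPM scale with 1 added (0.27, adjusted p = 0.355). With the replicate number as a block, 3 of the 10 genes were called higher in GDel2 against wildtype. Eomes and Bmp4 were among them, so Id1 and Id3 were not both called in that fit.

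Id2 (chr12:25093799-25096092, GRCm38.p6) had 2.33 and 1.20 CPM in GDel1, 2.60 and 2.46 CPM in GDel2, and 1.77, 2.41 and 2.73 CPM in wildtype. Both deletions overlapped wildtype. Its log2 fold change was -0.44 ± 0.32 in GDel1 (adjusted p = 0.428) and 0.12 ± 0.31 in GDel2 (adjusted p = 0.800). Between GDel2 and GDel1 it was 0.57 ± 0.36 (adjusted p = 0.270). Over the fits that left out 1 library it was 0.11 to 1.07, with 1.07 where GDel1 replicate 1 was left out and 1 GDel1 library remained. Within a library, Id1 had 1.67 and 1.72 counts per count of Id3 in GDel1, 1.50 and 1.71 in GDel2, and 0.960, 1.22 and 1.44 in wildtype.

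A wider list of 64 other ligands, receptors, transducers, modulators and targets of the Nodal, activin, BMP and TGF-beta branches was read from the same fit. Of these, 43 had enough counts to be tested, and 5 were at 0 in all libraries (Gdf1, Inhba, Acvr1c, Cer1 and Bmper). In GDel2 against wildtype 8 of the 43 were higher and 14 lower (51.2%, against 33.1% of all genes), and in GDel1 against wildtype 0 were higher and 1 lower (2.33%, against 0.376% of all genes). Their median log2 fold change was -0.06 in GDel2 and -0.11 in GDel1. In GDel2 against GDel1 7 were higher and 9 lower (37.2%, against 27.7% of all genes). For the 4 deletion libraries against wildtype 0 passed with edgeR. At an unadjusted p under 0.05 there were 11 of the 43, against 2930 of all 15421 genes tested. In that comparison DESeq2 called 6 of the list, all lower, against 970 of all genes (483 higher, 487 lower). The mean of both deletions from the 3-group fit gave 2 higher and 12 lower, against 3149 of all genes (1481 higher, 1668 lower).

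Among the Nodal and activin genes of this list, 5 of 17 tested were higher in GDel2 and 6 lower (64.7% in all, against 33.1% of all genes). Both tested ligands of the list rose in GDel2, while Nodal, which is outside the list, did not (-0.13, adjusted p = 0.361). Gdf3, a Nodal-related ligand, had 140 and 89.4 CPM in GDel1, 207 and 219 CPM in GDel2, and 126, 120 and 123 CPM in wildtype, a rise in GDel2 of 0.79 ± 0.16 on the log2 scale (adjusted p = 0.00644). That call was lost without GDel2 replicate 2 (adjusted p = 0.0580). Inhbb, which encodes the subunit of activin B, had 6.52 and 8.95 CPM in GDel1, 24.8 and 23.9 CPM in GDel2, and 7.36, 8.23 and 6.67 CPM in wildtype, a rise in GDel2 of 1.71 ± 0.16 (adjusted p = 0.000117).

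Of the tested receptors and transducers of this branch, the activin receptor gene Acvr1b fell in GDel2 by 0.50 ± 0.12 on the log2 scale and Smad3 by 0.63 ± 0.11. Smad3 had 32.4 and 31.3 CPM in GDel1, 23.0 and 19.1 CPM in GDel2, and 31.6, 33.7 and 32.2 CPM in wildtype, with GDel2 below all others. Smad2, Smad4 and Foxh1, the other SMADs of the branch and their DNA-binding partner, did not pass. Of 7 tested modulators, Pcsk6 (a proprotein convertase, 0.36) and Skil (a SMAD co-repressor, 0.34) rose in GDel2, and Furin (a convertase, -0.72), Fst (the activin-binding follistatin, -0.96), Tgif1 (-0.37) and Ski (-0.39), both co-repressors, fell. Mixl1, a Nodal target that encodes a homeobox factor of mesendoderm, rose by 1.41 ± 0.36. Without GDel2 replicate 2 the calls of Acvr1b (adjusted p = 0.0767), Furin (0.247), Skil (0.312), Ski (0.300), Tgif1 (0.0930) and Mixl1 (0.171) were lost, and without GDel2 replicate 1 that of Pcsk6 (0.0844). Leaving out any 1 wildtype library also ended the calls of Furin (adjusted p = 0.0835 to 0.0956), Skil (0.0627 to 0.154), Ski (0.103 to 0.124) and Mixl1 (0.0501 to 0.0520). Wildtype replicates 1 and 3 did so for Pcsk6 (adjusted p = 0.0652 and 0.0525) and wildtype replicate 2 for Tgif1 (0.0595).

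Among the BMP genes of the wider list, 3 of 20 tested were higher in GDel2 and 6 lower (45.0% in all, against 33.1% of all genes). The transducer genes Smad1 (0.61 ± 0.12 on the log2 scale, adjusted p = 0.00598) and Smad9 (2.21 ± 0.62, adjusted p = 0.0249, at under 2 CPM in every library) rose, and Smad5 did not pass. The receptor gene Bmpr2 had 89.5 and 80.6 CPM in GDel1, 59.9 and 68.4 CPM in GDel2, and 108, 109 and 110 CPM in wildtype, a fall in GDel2 of 0.76 ± 0.09 (adjusted p = 0.000526). The co-receptor genes Rgma and Rgmb fell in GDel2 by 1.71 ± 0.15 and 0.96 ± 0.11. Rgma was also the 1 gene of the list past the threshold in GDel1, with 7.16 and 8.85 CPM in GDel1, 4.34 and 4.55 CPM in GDel2, and 14.8, 14.8 and 14.2 CPM in wildtype. Its log2 fold change in GDel1 was -0.86 ± 0.14 (adjusted p = 0.0488), and the call was lost without GDel2 replicates 1 or 2 (adjusted p = 0.0639 and 0.0565) and without wildtype replicates 1, 2 or 3 (0.211, 0.220 and 0.144). The Smad9 call in GDel2 was lost without GDel2 replicates 1 or 2 (adjusted p = 0.174 and 0.0642) and without wildtype replicates 1 or 3 (0.0708 and 0.0708).

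The other inhibitory SMAD, Smad6, fell in GDel2 by 0.90 ± 0.19 on the log2 scale (adjusted p = 0.00640), while in GDel1 its 6.44 and 5.10 CPM lay near the 6.77, 6.50 and 6.20 CPM of wildtype. Not all Id genes went the same way. Id4, the member of the family outside the 10, had 16.5 and 15.4 CPM in GDel1, 4.50 and 3.98 CPM in GDel2, and 11.26, 11.26 and 14.02 CPM in wildtype, a fall in GDel2 of 1.53 ± 0.16 (adjusted p = 0.000258). Of the other BMP targets, Dusp9, a phosphatase of ERK that BMP signalling raises in mouse embryonic stem cells, with mean CPM of 66.1 in GDel2 and 32.3 in wildtype, rose by 1.03 ± 0.09, and Msx2 fell by 0.76 ± 0.22. In the TGF-beta branch Tgfb2 (-1.70 ± 0.26) and Tgfbr3 (-1.05 ± 0.20) fell in GDel2, and Tgfb1 differed from GDel1 (1.18 ± 0.32, adjusted p = 0.0258) but not from wildtype beyond the threshold (0.68 ± 0.28, adjusted p = 0.0943). The Msx2 call was lost without GDel2 replicates 1 or 2 (adjusted p = 0.114 and 0.108) and without any 1 wildtype library (0.0730 to 0.0834), and that of Tgfb1 without GDel1 replicate 1 (0.0580) or GDel2 replicate 1 (0.164).

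**Figure D5:**
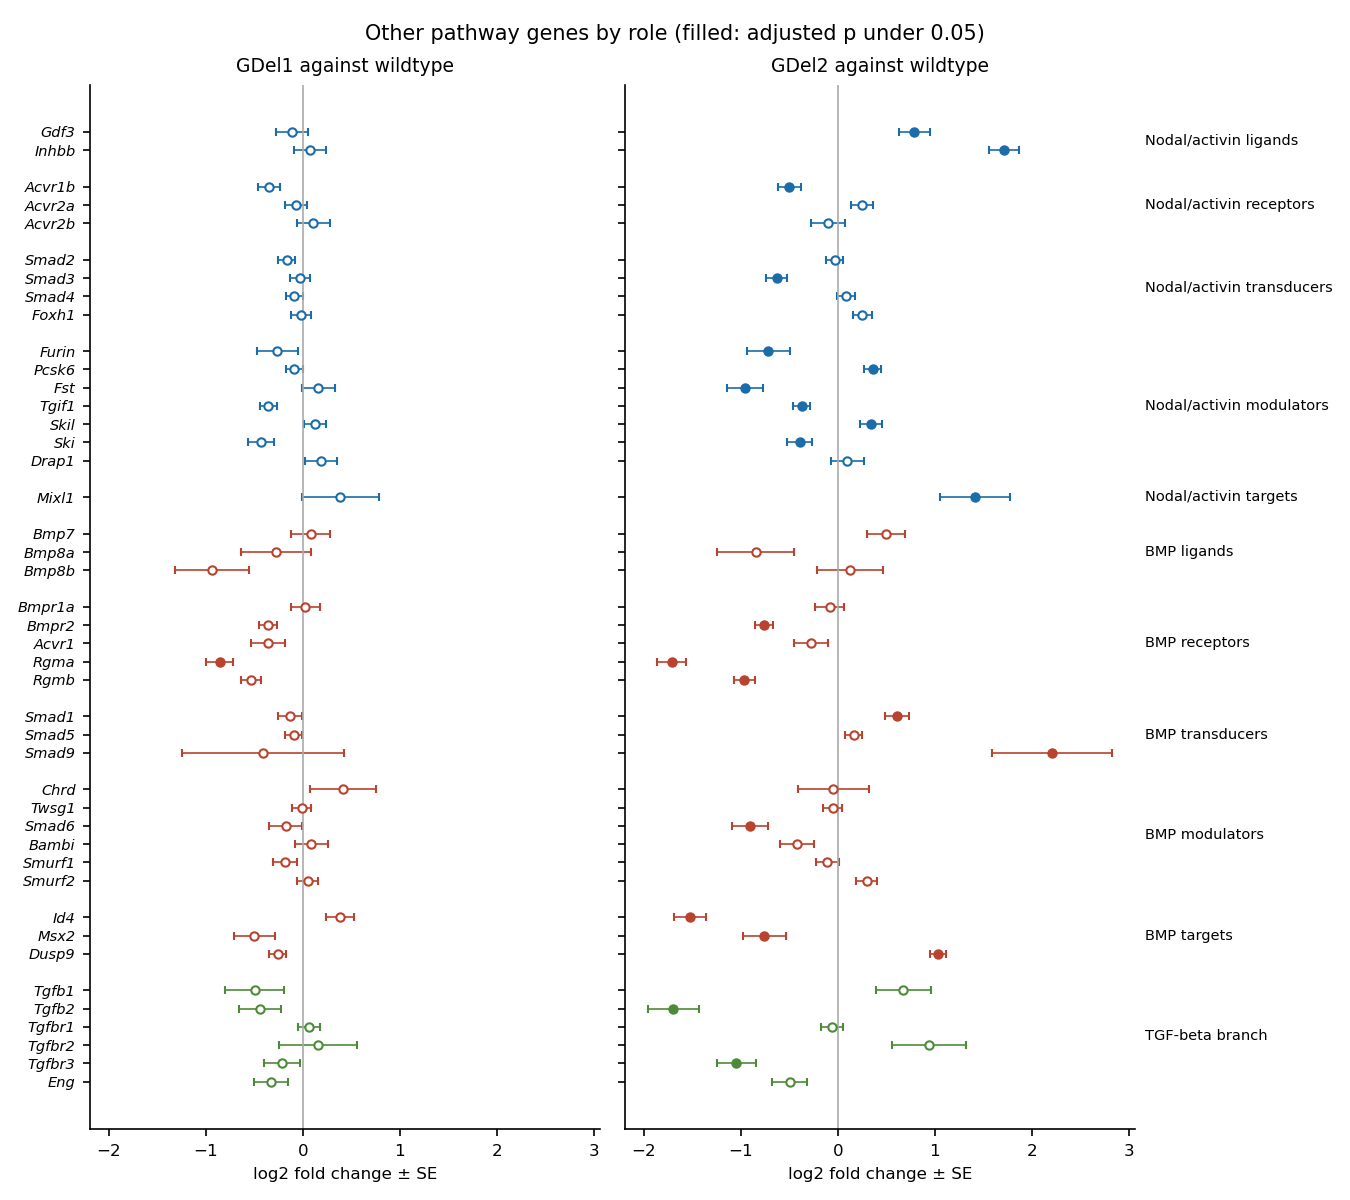
Log2 fold change ± SE (horizontal axis) of the 43 other pathway genes tested, ordered by role from top to bottom, in GDel1 against wildtype (left) and GDel2 against wildtype (right), filled where the adjusted p was under 0.05. Rgma (-0.86) is the 1 filled point in GDel1, and 22 points are filled in GDel2, 8 to the right and 14 to the left.

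Some of the genes higher in GDel2 lie on chromosomes where many genes were higher. In GDel2 against wildtype the median log2 fold change was 0.51 over 658 genes of chromosome 6, of which 51.2% were higher, and 0.44 over 713 genes of chromosome 8, of which 50.9% were higher, against 0.01 over all genes. Gdf3 lies on chromosome 6 and Smad1 on chromosome 8, and the part of those chromosomes in their rise was not tested. Inhbb, Pcsk6, Skil, Mixl1, Smad9 and Dusp9, also higher in GDel2, lie on neither chromosome. None of the 10 genes lies on either chromosome. In GDel1 the medians were -0.01 on chromosome 6 and -0.01 on chromosome 8.

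The genes with the pattern most like that of Nodal over the 7 libraries, by Pearson's r of log2 CPM among 9474 genes of at least 5 CPM on average, were Unc50 (0.97), Stard3nl (0.96), Fbl (0.96), Rpl38 (0.96) and Arpc1b (0.96). For Id1, among 9475 genes, they were Ndufa5 (0.99), Tmed9 (0.99), Gnl3 (0.99), Rpl13 (0.99) and Dld (0.98). At least 0.9 was reached by 77 genes for Nodal and by 203 for Id1. The points share library, depth and scaling, and the 7 libraries are 3 groups, so these values only describe the likeness.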

How the data were processed

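RNA from 7 libraries of E14 mouse embryonic stem cells was analysed. The deposited table of each library holds RSEM gene results: expected counts, estimated per gene by the authors' tool and not scaled for depth; TPM, which the authors divided by effective length and scaled to the same total in each library; deposited FPKM values, not used here; and deposited lengths and effective lengths in bases. Per the submitters' processing notes, tools of the series include STAR and RSEM, with the mm10 build. Neither the strand setting nor the release of the annotation is given in the sources used here, so antisense reads could not be told apart. Symbols were found for 55141 of 55487 identifiers, and positions and promoters came from RefSeq tables of the GRCm38.p6 assembly.

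Expected counts were rounded. Genes were kept by filterByExpr (minimum count 10, minimum total 15). The fits used R 4.3.3 and edgeR 4.0.16 (robust quasi-likelihood F test, TMM scaling). Both deletions against wildtype, and GDel2 against GDel1, came from 1 fit of 3 groups, and the 4 deletion libraries against wildtype from a fit of 2 groups. P-values were 2-sided and adjusted by Benjamini-Hochberg over all genes tested. DESeq2 1.42.0, limma 3.58.1 on log2(TPM + 1) and log2(TPM + 0.1), RLE scaling, other filters, the replicate number as a block and leaving out each library were alternatives. The fits were tested on simulated data. All 10 genes were described, and of the wider list those past the threshold could be named. Results for some listed genes are not reported here. The 10 genes, the lists and the alternatives were chosen with earlier results of these data known.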

Additional observations from a re-analysis of the deposited data

Results flagged for a closer look

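The following genes had effects that differed between the 2 deletions, by the test of GDel2 against GDel1 itself, which needs no wildtype library in the contrast. Among the 10 genes the log2 difference, GDel2 minus GDel1, was 2.12 for Eomes, 1.43 for Bmp4, -0.75 for Lefty1 and -0.34 for Nodal. Among the other genes of the Nodal and activin branch it was 0.90 for Gdf3, 1.64 for Inhbb, 0.45 for Pcsk6, -0.60 for Smad3 and -1.11 for Fst. Among those of the BMP branch it was 0.74 for Smad1, 2.61 for Smad9, 1.29 for Dusp9, -0.41 for Bmpr2, -0.85 for Rgma, -0.43 for Rgmb, -0.73 for Smad6 and -1.91 for Id4. In the TGF-beta branch it was 1.18 for Tgfb1, -1.25 for Tgfb2 and -0.83 for Tgfbr3. In this comparison 27.7% of all genes passed the threshold. The difference changed sign on the TPM scales for Nodal, Smad3 and Rgma. Without GDel2 replicate 1 the calls of Nodal, Bmpr2, Pcsk6, Rgmb, Smad6, Smad9, Tgfb1, Tgfb2 and Tgfbr3 were lost (adjusted p = 0.0579 to 0.164), and without GDel2 replicate 2 those of Nodal, Rgmb, Smad6, Smad9 and Tgfbr3 (0.0515 to 0.0855). Without GDel1 replicate 1 those of Nodal, Smad6, Smad9, Tgfb1 and Tgfbr3 were lost (adjusted p = 0.0580 to 0.101), without GDel1 replicate 2 that of Rgmb (0.0621), and without any 1 wildtype library those of Nodal, Rgmb and Smad6 (0.0506 to 0.0924).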

How the results depend on the processing

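Eomes, Bmp4 and Lefty1 kept their direction in GDel2 against wildtype and stayed past the threshold under every alternative run. Counts of calls depended on the setting, and the cause was not tested. A fit without a library of GDel1 or GDel2 keeps 1 library of that deletion and measures no spread within it. Of the 10 genes, GDel1 against wildtype had 0 calls, but 1 with DESeq2 and with TPM under either pseudocount, 3 with no filter, and 3 without both GDel1 replicate 1 and GDel2 replicate 2; leaving out 1 library gave 0 to 3. GDel2 against wildtype had 6 calls, with 3 to 7 when 1 library was left out. GDel2 against GDel1 had 4, but 2 on log2(TPM + 0.1), with 3 to 5 when 1 library was left out. The deletion group against wildtype had 0, but 2 with DESeq2 and 6 with the mean of both deletions. Over all genes, GDel1 against wildtype had 58 calls (25 higher, 33 lower), but 993 with DESeq2, 3250 on log2(TPM + 1) (30 higher, 3220 lower), 3531 on log2(TPM + 0.1) (33 higher, 3498 lower), 2357 with no filter, 17 with a stricter one, 4262 without both libraries, and 4 to 2034 without 1 library. GDel2 against wildtype had 5099, but 2604 and 2492 on the TPM scales and 2643 to 6578 without 1 library. GDel2 against GDel1 had 4268 (2289 higher, 1979 lower), with 3747 on log2(TPM + 1) (3383 higher, 364 lower), 3931 on log2(TPM + 0.1) (3507 higher, 424 lower) 5908 without both libraries and 2602 to 5617 without 1 library. The deletion group against wildtype had 0, but 970 with DESeq2, 2 on log2(TPM + 1), 1 with no filter and 3149 with the mean of both deletions. Directions between GDel2 and GDel1 reversed on log2(TPM + 1) and log2(TPM + 0.1) for Nodal (0.0206 and 0.0222), Smad3 (0.062 and 0.079) and Rgma (0.0043 and 0.0011), where the median gene moved by 0.24 and 0.36. Among values of the 10 genes not past the threshold, 48 changed sign, 20 of them on the TPM scales. Of the wider list, GDel1 against wildtype had 1 call (0 to 6 without 1 library, 13 and 16 on the TPM scales), GDel2 against wildtype 22 (13 to 26, 10 and 10 on the TPM scales) and GDel2 against GDel1 16 (8 to 17).

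The labels do not say if the replicate numbers pair the samples. Same-numbered libraries had deviations from their group means correlated at -0.21 between GDel1 and GDel2. The values were 0.10 and -0.01 between GDel1 and wildtype, and -0.11 and -0.09 between GDel2 and wildtype. With 2 libraries in a group the deviations mirror each other, so these values cannot settle if the samples are paired. With the replicate number as a block, all-gene calls were 1 in GDel1 against wildtype, 2296 in GDel2 against wildtype, 2235 in GDel2 against GDel1 and 0 for the deletion group, and calls among the 10 genes were 0, 4, 3 and 0. Depth limits the Id genes most, at 23 to 115 expected counts a library.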

Other observations

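Of 7 formative pluripotency markers 5 were tested, and in GDel2 2 were higher and 3 lower than in wildtype. Of all genes tested 17.4% were higher and 15.6% lower in that comparison. Zic2 (log2 fold change 1.20, adjusted p = 9.98e-05) and Pou3f1 (1.56, adjusted p = 0.0125) rose, and Lef1 (-2.79, adjusted p = 0.00371), Dnmt3b and Otx2 fell. Dnmt3b, a DNA methyltransferase that rises as naive cells move on, had 76.8 and 84.4 CPM in GDel1, 41.3 and 42.1 CPM in GDel2, and 85.7, 92.0 and 86.3 CPM in wildtype, a log2 fold change of -1.08 in GDel2 (adjusted p = 8.38e-05). Otx2, a transcription factor of the same transition, had 5.96 and 6.35 CPM in GDel1, 4.18 and 3.40 CPM in GDel2, and 6.62, 6.25 and 6.20 CPM in wildtype, a log2 fold change of -0.75 in GDel2 (adjusted p = 0.00914). Of 12 naive markers, all tested, 2 were higher and 4 lower in GDel2 (17.4% and 15.6% of all genes). Zfp42 (Rex1) had 200 and 220 CPM in GDel1, 357 and 397 CPM in GDel2, and 166, 166 and 176 CPM in wildtype, and rose in GDel2 by 1.15 on the log2 scale (adjusted p = 5.81e-05). Nanog rose in GDel2 by 0.40 (adjusted p = 0.00956) while Tfcp2l1 fell by 0.81 (adjusted p = 0.00114), Tbx3 by 0.57 (0.00546), Sox2 by 0.40 (0.0120) and Esrrb by 0.36 (0.0400).

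Nodal per Lefty2, a count ratio within a library, was 0.221 and 0.221 in GDel1, 0.186 and 0.192 in GDel2, and 0.207, 0.197 and 0.203 in wildtype, so the 3 groups did not overlap. Fn1, which takes most of the summed fibroblast marker level, had 820 and 1593 CPM in GDel1, 990 and 528 CPM in GDel2, and 2022, 1999 and 1953 CPM in wildtype, while the fibroblast markers Col3a1, Postn and Dcn were at 0 in all libraries. Of the 10 fibroblast markers 4 were tested, and in GDel2 Thy1 was higher (log2 fold change 1.42, adjusted p = 0.0105) and Fn1 (-1.39, adjusted p = 0.0285) and Vim (-0.88, adjusted p = 0.000277) lower than in wildtype. The shares over all genes tested were 17.4% higher and 15.6% lower.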
